A study of Mus musculus with 13 samples.

Results

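The Myc and Max network is a group of 9 transcription factor genes that were found in the deposited tables by gene symbol, out of 20270 genes listed. They are the activators Myc, Mycn and Mycl, the shared partner Max, and Mxd1, Mxd4, Mxi1, Mnt and Mga, which compete with the activators for Max or for DNA. The network was picked on the values of Myc itself, because Myc was higher after bleomycin and lower in the knockout, so the values of Myc are given below as a description with no test. The other 8 genes follow by membership of the network and were tested together with all genes. All 9 passed the filter on low counts, which left 15315 genes.

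Whole-lobe lung RNA was sequenced in 13 libraries, each counted here as a separate mouse. The titles of WT bleomycin replicates 4 and 4-B2 carry the same number, and the meaning of B2 is not given. The 4 Control mice (replicates 3, 21, 24 and 26) were wild-type by their sample titles and had no bleomycin. The study's methods give saline as the vehicle of its control mice. The 5 WT bleomycin mice (replicates 4, 2, 5, 4-B2 and 7) and the 4 CB1R KO bleomycin mice (replicates 8, 9, 10 and 11) were taken 14 days after a single oropharyngeal dose of bleomycin, a drug that injures the alveoli and leaves a fibrotic lung. The wild-type animals were male C57BL/6J mice that the methods describe as 13-week-old, and the knockout mice were Cnr1-/-, without the gene of the cannabinoid receptor CB1R, on the same strain background. A knockout of all cells does not say in which cell type the receptor acted, and no knockout lungs without bleomycin were analysed here. The comparison of the knockout with control therefore differs in genotype and in bleomycin together. The data address how the network stands in the fibrotic lung and whether it stands differently when CB1R is missing.

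Myc, Mycn and Mycl bind DNA only as dimers with Max, mostly at the sequence CACGTG, called the E-box, and raise genes of ribosome synthesis, metabolism and the cell cycle. Mxd1, Mxd4, Mxi1 and Mnt form dimers with the same Max, sit on the same sites and recruit Sin3 corepressors with histone deacetylases, and Mga brings Max into a Polycomb complex. Max is made at a steady level in most cells, whereas Myc RNA and protein turn over quickly and follow growth signals. In the adult lung Myc is low and rises in proliferating epithelial, immune and mesenchymal cells, and Mycl was first described in lung cancer.

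The promoters of the network's own genes are shown because some hold the sequence that the network binds. RefSeq windows on build GRCm38.p6, each with 250 bases before the transcription start and 50 after it, were given for 8 of the 9 genes and not for Myc. The letters CACGTG, which read the same on the other strand, stood in 3 of those 8 genes, Max, Mnt and Mxd4, and in 3 of their 10 windows, where 7.15% of all 32851 windows hold them. In Max the match began 3 bases before the start and crossed it. In Mnt it began 123 bases before the start, and in Mxd4 219 bases before it. The stretches printed here run 5′ to 3′ on the strand of the gene, with the match in capitals, and come from chr12:76962229-76962328 (minus strand) for Max, chr11:74830754-74830853 (plus strand) for Mnt and chr5:34187861-34187960 (minus strand) for Mxd4. The stretch of Max ends 20 bases after the start, and the other stretches lie wholly before it.
Max: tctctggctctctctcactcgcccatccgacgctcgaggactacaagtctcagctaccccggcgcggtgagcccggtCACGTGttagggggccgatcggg
Mnt: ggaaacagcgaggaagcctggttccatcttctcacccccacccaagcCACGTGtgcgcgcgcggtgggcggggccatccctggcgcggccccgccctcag
Mxd4: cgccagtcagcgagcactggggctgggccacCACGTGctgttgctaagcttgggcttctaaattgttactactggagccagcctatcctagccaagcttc
The windows of Mycn, Mycl, Mxd1, Mxi1 and Mga did not hold these letters. A match is a description of the letters and does not show binding, which was not measured.

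Totals ran from 14615904 to 16662580 estimated counts in 12 libraries, and CB1R KO replicate 11 held 53463884. The type II cell markers Sftpc, Sftpb, Sftpa1, Lamp3 and Abca3 summed to between 10554 and 20086 CPM in every library. CPM is a count divided by the library total after TMM scaling, and is used for the same gene between libraries. Cnr1 was counted in every library and did not separate the genotypes, with 2.47, 3.47, 4.60 and 5.63 CPM in the libraries labelled CB1R KO against 3.46 to 6.97 in WT bleomycin and 1.62 to 4.10 in control. The part of Cnr1 that those reads came from is not given, so its counts do not check the label. In bulk RNA, fewer cells of a type and less RNA per cell cannot be told apart, and this holds for every value below.

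Myc, the activator whose transcript chose the network, had 8.97, 8.23, 10.5 and 11.5 CPM in the control libraries 3, 21, 24 and 26. It had 28.8, 22.4, 33.9, 36.7 and 32.8 CPM in the WT bleomycin libraries 4, 2, 5, 4-B2 and 7, and 17.1, 14.7, 17.5 and 15.0 CPM in the CB1R KO bleomycin libraries 8, 9, 10 and 11. The 3 groups did not overlap, and the lowest WT bleomycin library, replicate 2, lay above the highest knockout library. Group means were 9.81 ± 1.49 CPM for control (SD, n = 4), 30.9 ± 5.56 for WT bleomycin (SD, n = 5) and 16.1 ± 1.43 for the knockout (SD, n = 4). The fitted log2 fold change of Myc was 1.66 (SE 0.14) for WT bleomycin against control, a 3.15-fold difference. It was -0.95 (SE 0.14) for the knockout against WT bleomycin, which is 48.1% lower, and 0.71 (SE 0.15) for the knockout against control. Myc in the knockout lungs thus stood between the other groups, above every control library and below every WT bleomycin library. These values chose the network and carry no test.

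**Figure D1:**
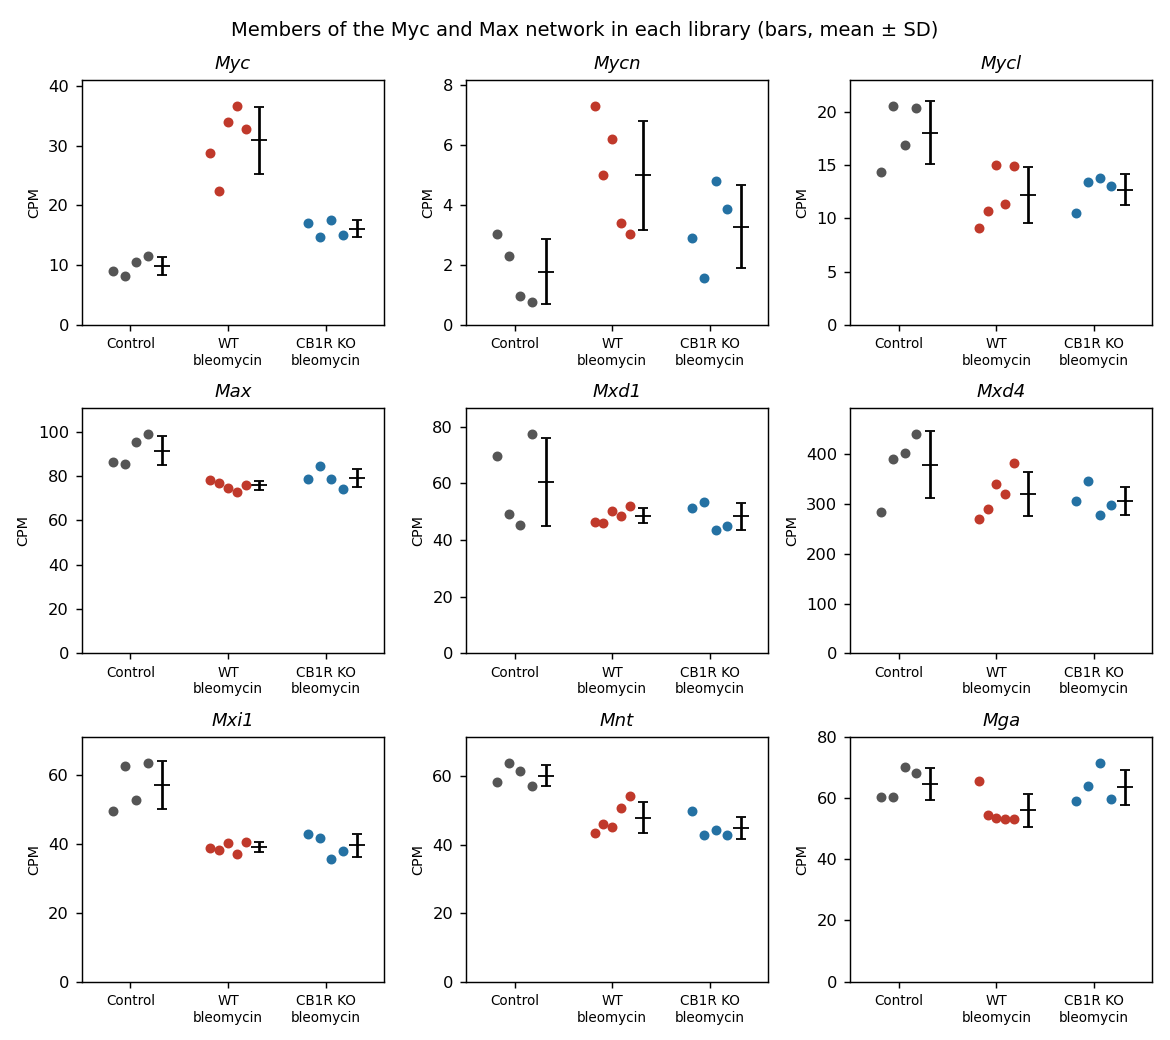
CPM (library-scaled counts, linear axis from 0) of the 9 network genes in the Control, WT bleomycin and CB1R KO bleomycin groups. There is 1 point per library, with the mean and SD beside the points. Myc separates all 3 groups, while Max, Mxi1 and Mnt have every library of both bleomycin groups below every control library.

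Mycn, the activator best known from embryonic tissue and neuroblastoma, was the least abundant member. It had 3.03, 2.28, 0.961 and 0.773 CPM in control libraries 3, 21, 24 and 26, and 7.28, 5.00, 6.19, 3.39 and 3.02 CPM in WT bleomycin libraries 4, 2, 5, 4-B2 and 7. In the knockout it had 2.88, 1.57, 4.78 and 3.84 CPM in libraries 8, 9, 10 and 11. Mycn rose with bleomycin by 1.49 on the log2 scale (SE 0.42, edgeR adjusted p = 0.00861), although WT bleomycin replicate 7 lay just below control replicate 3. The control libraries spread over a wide range, with an SD of 61.3% of the mean, and the rise rests on counts of 12 to 51 in control and 48.9 to 115 in WT bleomycin. Mycn in the knockout had a log2 fold change of 0.89 (SE 0.43, adjusted p = 0.123) against control and -0.60 (SE 0.39, adjusted p = 0.457) against WT bleomycin, and neither passed the threshold. Labels in capitals marked 3 libraries, control replicate 26 and WT bleomycin replicates 4-B2 and 7, in which Mycn was the lowest of their groups, and in the other 10 libraries alone the log2 fold change with bleomycin in WT was 1.55 (adjusted p = 0.0129). Without control replicate 3 the knockout value against control was 1.29 and passed (adjusted p = 0.0435). The standard error of Mycn was the widest in the network, and its estimate between the genotypes moved from -0.95 (adjusted p = 0.25) with label style as a batch term to -0.38 without knockout replicate 9. It did not pass in any of 24 alternatives, so the difference was not resolved.

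Mycl, the third activator, went the other way. It had 14.4, 20.5, 16.8 and 20.4 CPM in control libraries 3, 21, 24 and 26, then 9.06, 10.7, 15.0, 11.4 and 14.9 CPM in WT bleomycin libraries 4, 2, 5, 4-B2 and 7. The knockout libraries 8, 9, 10 and 11 had 10.5, 13.4, 13.8 and 13.03 CPM, all below the lowest control library. This separation did not hold in TPM, where knockout replicates 9 (7.87) and 10 (7.64) lay above control replicate 3 (7.16). Mycl fell by 0.56 on the log2 scale in WT bleomycin (SE 0.16, adjusted p = 0.00846) and by 0.50 in the knockout against control (SE 0.16, adjusted p = 0.0281). Knockout and WT bleomycin lungs overlapped, with a log2 fold change of 0.06 (SE 0.16, adjusted p = 0.880). The fall in the knockout did not pass the threshold in 8 of 24 alternative analyses, with adjusted p up to 0.103. Among them were limma on log2(TPM + 1) (adjusted p = 0.0992) and on log2(TPM + 0.1) (0.103). The fits without control replicate 21 (adjusted p = 0.081), control replicate 26 (0.0759), knockout replicate 8 (0.0754) or knockout replicate 11 (0.0553) were also among them.

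Max, the shared partner of the other members, was lower after bleomycin by a small amount with little spread. It had 86.5, 85.4, 95.2 and 98.8 CPM in control libraries 3, 21, 24 and 26, 78.4, 76.9, 74.7, 72.9 and 76.0 CPM in WT bleomycin libraries 4, 2, 5, 4-B2 and 7, and 78.9, 84.3, 78.5 and 74.3 CPM in knockout libraries 8, 9, 10 and 11. Every library of both bleomycin groups lay below every control library. Max fell by 0.27 on the log2 scale in WT bleomycin (SE 0.06, adjusted p = 0.00146), or 17.1%, and by 0.21 in the knockout against control (SE 0.06, adjusted p = 0.0152). Without knockout replicate 11 the latter was -0.18 and did not pass (adjusted p = 0.0543), nor did it with limma on TPM. Between knockout and WT bleomycin the log2 fold change was 0.06 (SE 0.06, adjusted p = 0.644). On the TPM scale, which divides by transcript length and so allows levels of different genes to be set side by side, Max exceeded Myc 9.23-fold ± 0.961 in control lungs (SD, n = 4), 2.49-fold ± 0.567 with WT bleomycin (SD, n = 5) and 4.80-fold ± 0.615 in the knockout (SD, n = 4). Max RNA remained above Myc RNA in every library, with a lowest ratio of 2.07 in WT bleomycin replicate 7. The separation of Max from control held in CPM and not in TPM, where knockout replicates 9 (72.2) and 10 (70.9) lay above control replicate 21 (70.8).

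Of the Max partners on the repressor side, Mxi1, also named Mad2, fell most. It had 49.4, 62.7, 52.8 and 63.5 CPM in control libraries 3, 21, 24 and 26, and 38.8, 38.3, 40.4, 37.1 and 40.6 CPM in WT bleomycin libraries 4, 2, 5, 4-B2 and 7. Knockout libraries 8, 9, 10 and 11 had 42.9, 41.7, 35.5 and 38.1 CPM, and no bleomycin library reached the lowest control. The fall was 0.55 on the log2 scale in WT bleomycin (SE 0.08, adjusted p = 8.29e-05) and 0.53 in the knockout against control (SE 0.09, adjusted p = 0.000362). The genotypes overlapped after bleomycin, at a log2 fold change of 0.02 (SE 0.08, adjusted p = 0.934).

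Mnt, the repressor partner of Max that is made in most cell types and is regarded as the standing antagonist of Myc, had 58.1, 63.8, 61.5 and 57.0 CPM in control libraries 3, 21, 24 and 26. It had 43.3, 45.9, 45.1, 50.8 and 54.1 CPM in WT bleomycin libraries 4, 2, 5, 4-B2 and 7 and 49.7, 42.9, 44.2 and 42.8 CPM in knockout libraries 8, 9, 10 and 11. Every bleomycin library again lay below every control library, and the genotypes overlapped. Mnt fell by 0.33 on the log2 scale in WT bleomycin (SE 0.07, adjusted p = 0.0022) and by 0.42 in the knockout against control (SE 0.08, adjusted p = 0.000956). The log2 fold change between knockout and WT bleomycin was -0.09 (SE 0.08, adjusted p = 0.562).

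Mxd4, the most abundant member, had 283, 390, 404 and 440 CPM in control libraries 3, 21, 24 and 26 and 270, 291, 340, 321 and 384 CPM in WT bleomycin libraries 4, 2, 5, 4-B2 and 7. In knockout libraries 8, 9, 10 and 11 it had 306, 346, 278 and 299 CPM. The groups overlapped because control replicate 3 was low, and the log2 fold changes against control were -0.24 in WT bleomycin (SE 0.12, adjusted p = 0.118) and -0.31 in the knockout (SE 0.13, adjusted p = 0.0801). Without control replicate 3 they were -0.36 (adjusted p = 0.0124) and -0.42 (adjusted p = 0.00968), both past the threshold. With all libraries kept and label style as a batch term, the value in WT bleomycin passed as well, at -0.28 (adjusted p = 0.0489).

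Mxd1, which rises as cells leave the cycle and differentiate, had 69.7, 49.1, 45.5 and 77.3 CPM in control libraries 3, 21, 24 and 26. It had 46.3, 45.9, 50.2, 48.7 and 52.1 CPM in WT bleomycin libraries 4, 2, 5, 4-B2 and 7 and 51.3, 53.4, 43.7 and 45.1 CPM in knockout libraries 8, 9, 10 and 11. The control group split into a pair of libraries at the level of the bleomycin libraries and a pair well above it. The neutrophil markers S100a8, S100a9, Retnlg and Cxcr2 split the same libraries the same way, with sums of 387 and 341 CPM in control replicates 3 and 26, where Mxd1 was high, and 95.2 and 75.4 CPM in replicates 21 and 24. In WT bleomycin they summed to 48.7 to 90.7 CPM, with 3 of the 4 markers lower than in control, and in the knockout to 62.0 to 121 CPM, with all 4 lower. Their part in the values of Mxd1 was not tested. The log2 fold changes of Mxd1 against control were -0.31 in WT bleomycin (SE 0.13, adjusted p = 0.0637) and -0.32 in the knockout (SE 0.14, adjusted p = 0.0855). Without control replicate 24 they were -0.43 (adjusted p = 0.0115) and -0.44 (adjusted p = 0.0197), and without control replicate 21 they were -0.40 (adjusted p = 0.0263) and -0.41 (adjusted p = 0.0402). Leaving out the high controls moved them the other way, to -0.18 (adjusted p = 0.249) and -0.19 (adjusted p = 0.286) without replicate 26 and to -0.23 (adjusted p = 0.188) and -0.24 (adjusted p = 0.222) without replicate 3. Between the genotypes the log2 fold change was -0.01 (SE 0.13, adjusted p = 0.977) for Mxd1 and -0.06 (SE 0.12, adjusted p = 0.826) for Mxd4.

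Mga, the large member that carries a second DNA-binding domain of the T-box kind, had 60.2, 60.2, 70.1 and 68.2 CPM in control libraries 3, 21, 24 and 26. It had 65.6, 54.3, 53.6, 53.2 and 53.1 CPM in WT bleomycin libraries 4, 2, 5, 4-B2 and 7 and 59.0, 63.8, 71.4 and 59.7 CPM in knockout libraries 8, 9, 10 and 11. In WT bleomycin 4 libraries lay below all controls and replicate 4 lay among them. The fall of 0.21 on the log2 scale in WT bleomycin (SE 0.08, adjusted p = 0.0487) was at the edge of the threshold and did not pass it in 16 of 25 alternative analyses, where the adjusted p reached 0.355. Leaving out control replicate 24 or 26, WT bleomycin replicate 2, 5, 4-B2 or 7, or knockout replicate 8, 9 or 11 each ended the call, with adjusted p from 0.0545 to 0.145, and without WT bleomycin replicate 4 the fall was larger, at -0.27 (adjusted p = 0.00905). Between the genotypes Mga had a log2 fold change of 0.18 (SE 0.08, edgeR adjusted p = 0.279), which did not pass. Among the 8 members tested, only Mga had an unadjusted p under 0.05 there, and Myc was not tested. Against control the knockout stood at -0.03 (SE 0.09, adjusted p = 0.832).

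Counted together, 6 of the 8 members other than Myc passed the test in WT bleomycin against control, 1 higher and 5 lower. Over all genes tested 48.9% passed in that comparison, 25.0% higher and 23.9% lower, so a call is a common event there. The median log2 fold change of the 8 was -0.29, beside -0.01 for all genes. In the knockout against control 4 of the 8 passed, all lower (Mycl, Max, Mxi1 and Mnt), beside 35.4% of all genes, 19.0% higher and 16.3% lower, and the median was -0.31. These comparisons share the control libraries. In the knockout against WT bleomycin 0 of the 8 passed in edgeR, in DESeq2 and in limma on TPM. The unadjusted edgeR p was under 0.05 for 1 of the 8, beside 2608 of all 15315 genes. Few genes of any kind passed the adjustment there, 0.979% of those tested, 0.359% higher and 0.62% lower. The fitted differences of those 8 ran from -0.60 for Mycn to 0.18 for Mga with a median of 0.00. With Mycn set aside, the difference nearest to the size seen for Myc was the 0.18 of Mga, which is opposite in sign.

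**Figure D2:**
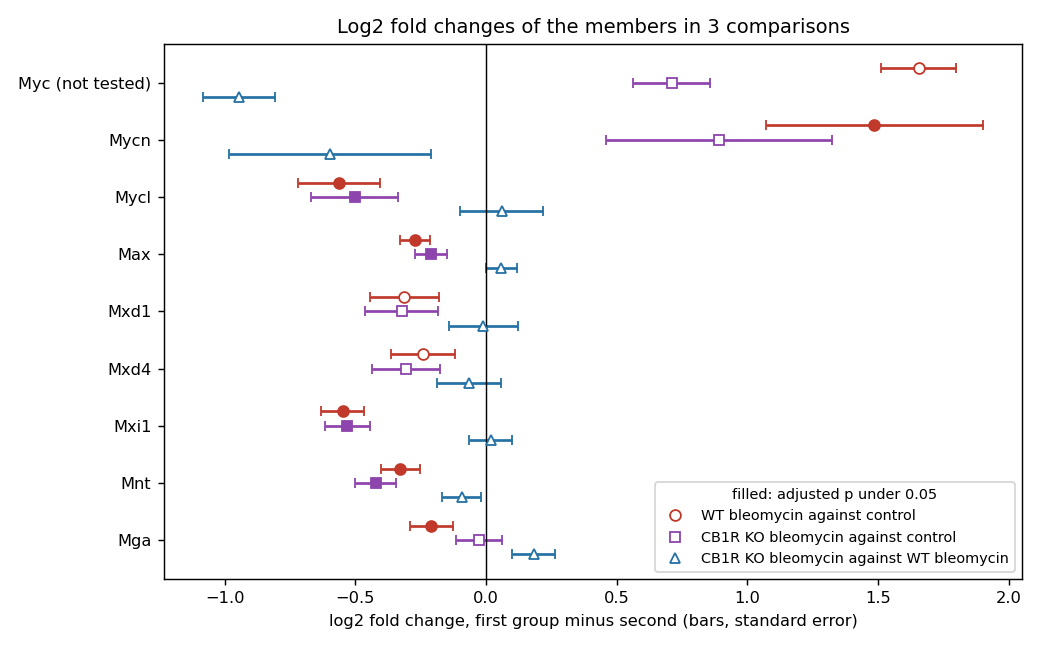
Log2 fold changes of the 9 genes in 3 comparisons that share libraries, with standard errors, filled where the adjusted p was under 0.05 and with Myc drawn open because it was not tested. Mycl, Max, Mxi1 and Mnt lie at about the same negative values in both bleomycin groups, and the triangles for the knockout against WT bleomycin lie near 0 except for Myc and Mycn.

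Summed by side on the TPM scale, the activators and their antagonists stood closer to each other after bleomycin. Myc, Mycn and Mycl together had 16.0, 19.0, 17.5 and 20.1 TPM in control libraries 3, 21, 24 and 26, and 33.4, 27.6, 39.7, 34.7 and 38.6 TPM in WT bleomycin libraries 4, 2, 5, 4-B2 and 7. They had 22.9, 21.4, 26.6 and 21.8 TPM in knockout libraries 8, 9, 10 and 11, again between the other groups without overlap. Since Myc is part of this sum, its order repeats the choice of the network. Of the activator TPM, Myc made up 45.1% ± 5.68 in control lungs (SD, n = 4), 75.1% ± 4.10 after bleomycin in WT (SD, n = 5) and 62.4% ± 3.85 in the knockout (SD, n = 4).

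The repressor side, Mxd1, Mxd4, Mxi1, Mnt and Mga, summed to 236 ± 22.4 TPM in control lungs (SD, n = 4), 199 ± 18.2 with WT bleomycin (SD, n = 5) and 200.2 ± 16.7 in the knockout (SD, n = 4). The last pair of groups overlapped over almost their whole range, from 179 to 221 TPM in WT bleomycin and from 177 to 212 in the knockout. Mxd4 alone held 64.8%, 68.0% and 66.9% of that sum in the 3 groups. For each unit of activator TPM there were 12.997 ± 0.311 units of repressor TPM in control lungs (SD, n = 4), 5.77 ± 0.586 with WT bleomycin (SD, n = 5) and 8.75 ± 1.50 in the knockout (SD, n = 4). Knockout replicate 10, at 6.64, was within the WT bleomycin range of 5.35 to 6.78, and the other knockout libraries lay from 8.73 to 9.90. This ratio contains Myc and is given without a test.

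**Figure D3:**
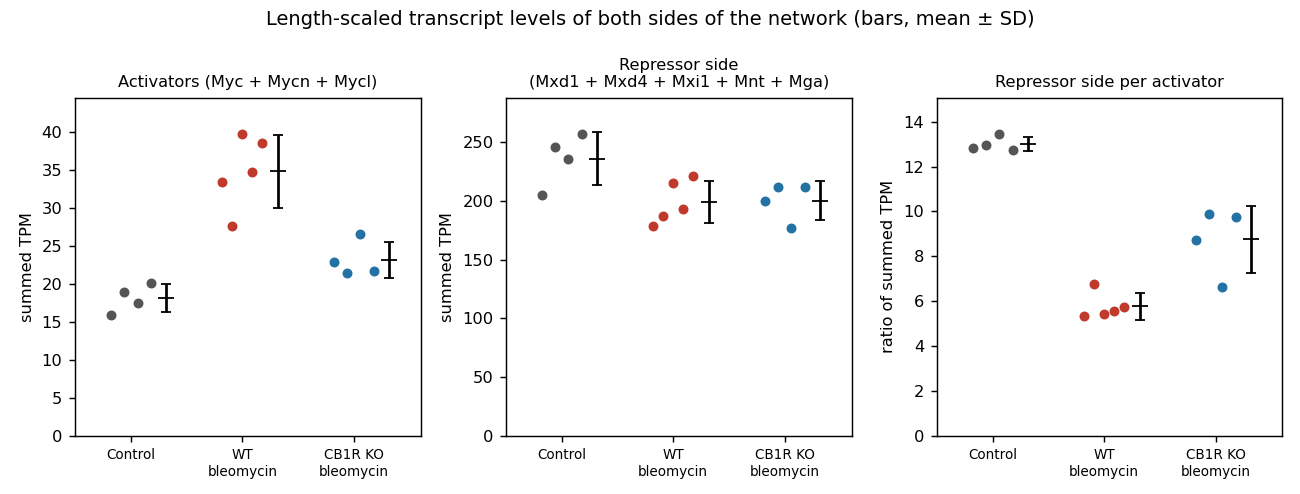
Summed TPM of the 3 activators, summed TPM of the 5 genes on the repressor side, and their ratio. There is 1 point per library, with the mean and SD, on linear axes from 0. The repressor sum is alike in both bleomycin groups, and the ratio falls from 12.997 in control to 5.77 in WT bleomycin with the knockout at 8.75.

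In order of mean TPM over the 13 libraries, the levels were 141 for Mxd4, 68.5 for Max, 29.7 for Mxi1, 17.0 for Myc, 16.9 for Mxd1, 16.5 for Mnt, 7.04 for Mycl, 6.94 for Mga and 2.02 for Mycn. The ranges over libraries of Mxd4, Max and Mxi1 did not overlap. Those of the neighbours Mxi1, Myc, Mxd1 and Mnt overlapped, as did those of Mycl and Mga, and Mycn lay below Mga in every library. Their order changed with the group. Myc at 8.17 ± 1.21 TPM (SD, n = 4) lay below Mnt at 19.1 ± 1.11 in control, and at 26.2 ± 4.31 TPM (SD, n = 5) it lay above Mnt at 15.6 ± 1.14 in WT bleomycin. In the knockout Myc at 14.5 ± 1.65 TPM (SD, n = 4) and Mnt at 15.2 ± 1.20 overlapped.

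Beyond the 9 genes, lists of partners and targets were drawn up from general knowledge of the pathway, with 169 distinct genes, all of which could be tested. Earlier results of these data were known at that time, so the shares below are not independent of the data. In WT bleomycin against control 110 of them passed, 88 higher and 22 lower, which is 65.1% beside 48.9% of all genes, and their median log2 fold change was 0.22. Against control, 79 passed in the knockout, 63 higher and 16 lower, which is 46.7% beside 35.4%. In the knockout against WT bleomycin 2 passed, or 1.18% beside 0.979%. The unadjusted p was under 0.05 there for 40 of the 169, beside 2608 of all 15315 genes. No set test was made, and the lists are described by these counts and medians.

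Among the other factors of the extended network, Mxd3, the family member expressed in dividing cells, rose from a control mean of 0.962 ± 0.431 CPM (SD, n = 4) to a WT bleomycin mean of 6.30 ± 0.833 (SD, n = 5), a log2 fold change of 2.69 (SE 0.44, adjusted p = 0.000163). In the knockout Mxd3 ran from 2.16 to 10.1 CPM. It moved opposite to Mxi1 and Mnt after bleomycin, and to the direction of the Mxd4 and Mxd1 estimates. Mlxipl, the glucose-responsive factor ChREBP that pairs with Mlx, fell by 1.58 on the log2 scale (SE 0.24, adjusted p = 0.000102), and Mlxip fell by 0.43 (SE 0.12, adjusted p = 0.00703). Mlx, their shared partner, had a log2 fold change of 0.21 (SE 0.09, adjusted p = 0.0696).

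Of 24 cofactors and regulators of Myc stability 13 passed in WT bleomycin, 8 higher and 5 lower, and their median was 0.02 on the log2 scale. Of all genes 48.9% passed there, so this count is near the general share. Cip2a, which shields Myc from the phosphatase PP2A, rose by 2.15 (SE 0.28, adjusted p = 2.09e-05) and Aurka, a mitotic kinase that stabilises N-Myc, rose by 2.21 (SE 0.33, adjusted p = 8.82e-05). Cip2a and Aurka are also genes of dividing cells. Usp28, a deubiquitinase that counters the Fbxw7 ligase, fell by 0.38 (SE 0.07, adjusted p = 0.000552), and Paf1 of the elongation complex fell by 0.27 (SE 0.06, adjusted p = 0.00142). None of the 24 passed between the genotypes in edgeR, where 2 had an unadjusted p under 0.05, beside 2608 of all 15315 genes.

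The corepressors that Mxd proteins and Mnt recruit had small fold changes. Of 10 genes 6 passed in WT bleomycin, 4 higher and 2 lower, beside 48.9% of all genes. Their fitted values ran from -0.20 for Sin3a (SE 0.07, adjusted p = 0.02), the scaffold of the complex, to 0.52 for Sap30 (SE 0.15, adjusted p = 0.0105). Of 11 genes of the Polycomb complex that holds Mga and Max, 4 passed, 2 higher and 2 lower, beside the same 48.9% of all genes. Tfdp1, the dimer partner of E2f6, rose by 0.75 (SE 0.08, adjusted p = 5.05e-06), and Pcgf6 rose by 0.41 (SE 0.15, adjusted p = 0.0352). Rybp fell by 0.30 (SE 0.09, adjusted p = 0.0119) and Ring1 fell by 0.25 (SE 0.08, adjusted p = 0.0169).

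The target list of ribosome synthesis and translation had the most genes, 45. In WT bleomycin 29 rose and 2 fell, beside 25% of all genes higher and 23.9% lower, and the median log2 fold change was 0.27. Eif2s1, a subunit of the factor that brings the initiator tRNA, went up from 40.2 ± 1.26 CPM in control (SD, n = 4) to 63.1 ± 4.97 in WT bleomycin (SD, n = 5), by 0.65 on the log2 scale (SE 0.07, adjusted p = 2.9e-06). Fbl, the methyltransferase of nucleolar RNPs, rose by 0.50 (SE 0.06, adjusted p = 1.92e-05). The exceptions were Las1l, a ribosomal RNA processing enzyme that fell by 0.31 (SE 0.07, adjusted p = 0.00139), and Ubtf, a factor for RNA polymerase I that fell by 0.19 (SE 0.06, adjusted p = 0.02). Of the same list 21 rose and 1 fell in the knockout against control, with a median of 0.15. Of all genes 19% were higher and 16.3% lower there. Between the genotypes 38 of the 45 estimates were below 0, with a median of -0.10. Of the 45, 12 had an unadjusted p under 0.05, beside 2608 of all 15315 genes, and 0 passed the adjustment in edgeR. CACGTG stood in the promoter windows of 14 of the 40 genes of this list that have one, or 35.0%, beside 8.09% of all genes with a window. The list was written from genes known as Myc targets, so that share is not independent evidence.

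Of 39 targets in metabolism and mitochondria 20 rose and 4 fell in WT bleomycin, and the median was 0.26 on the log2 scale. Of all genes 25% were higher and 23.9% lower there. Ctps, which makes CTP, went up from 40.8 ± 7.36 CPM in control (SD, n = 4) to 115.7 ± 11.1 in WT bleomycin (SD, n = 5) and stood at 99.1 ± 7.46 (SD, n = 4) in the knockout. Its log2 fold change was 1.50 with bleomycin in WT (SE 0.11, adjusted p = 2.29e-07) and -0.22 between the genotypes (SE 0.11, adjusted p = 0.311). Ldha, the lactate dehydrogenase subunit of glycolysis, rose by 0.75 (SE 0.07, adjusted p = 2.1e-06). Prps2, of nucleotide precursor synthesis, fell by 0.69 (SE 0.07, adjusted p = 4.29e-06) and Mthfd1, of folate metabolism, fell by 0.40 (SE 0.08, adjusted p = 0.00062). The windows of 7 of 34 genes of this list held CACGTG, and Ldha is printed as the example with a pair of matches, 145 and 48 bases before its start, from chr7:46845634-46845783 (GRCm38.p6, plus strand).
Ldha: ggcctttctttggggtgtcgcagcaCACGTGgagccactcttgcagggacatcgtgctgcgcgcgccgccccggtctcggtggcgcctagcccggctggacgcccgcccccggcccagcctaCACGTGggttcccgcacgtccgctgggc

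Slc2a1, the glucose transporter GLUT1, was the gene of this list that passed between the genotypes. It ran from 22.3 to 26.0 CPM in control, from 34.6 to 39.7 in WT bleomycin and from 22.4 to 29.6 in the knockout. The knockout lungs overlapped with control and not with WT bleomycin. Slc2a1 rose by 0.61 on the log2 scale with bleomycin in WT (SE 0.09, adjusted p = 9.08e-05), fell by 0.58 in the knockout against WT bleomycin (SE 0.09, adjusted p = 0.0177), and stood at 0.03 in the knockout against control (SE 0.10, adjusted p = 0.82). The call between the genotypes was lost in 4 of 24 alternatives, without knockout replicate 8 (adjusted p = 0.0742), 9 (0.0704) or 11 (0.0627) and with only the libraries that have lower-case labels (0.116), while the estimate stayed between -0.67 and -0.50 in all 24.

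Of the 18 cell cycle targets 16 rose and 1 fell in WT bleomycin, with the highest median of any list, 0.88. Of all genes 25% were higher and 23.9% lower there. Ccnd1, the cyclin of early G1, went up from 239 ± 23.0 CPM in control (SD, n = 4) to 439.7 ± 23.6 in WT bleomycin (SD, n = 5) and stood at 411 ± 26.0 (SD, n = 4) in the knockout. Mcm5, of the replicative helicase, rose by 1.40 (SE 0.16, adjusted p = 9.73e-06), and E2f2 fell by 0.32 (SE 0.10, adjusted p = 0.0159). Against control, 13 rose and 0 fell in the knockout, at a median of 0.78, beside 19% of all genes higher and 16.3% lower. Between the genotypes 0 of 18 passed and the median was -0.10. The proliferation markers Mki67, Top2a, Ccnb1, Cdk1, Bub1, Aurkb and Birc5 moved with this list. All 7 rose, and their sum went from 37.5 to 54.4 CPM in control to 212 to 321 in WT bleomycin and 132 to 357 in the knockout. How much of the change in Myc or in its targets goes with the number of dividing cells was not tested.

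The genes that Myc is known to repress moved in both directions. Of 9 genes 5 rose and 2 fell in WT bleomycin, beside 25% of all genes higher and 23.9% lower. Cdkn1a, the p53-responsive cell cycle inhibitor p21, rose by 2.39 (SE 0.18, adjusted p = 2.69e-07), while Cdkn1b, the inhibitor p27, fell by 0.72 (SE 0.07, adjusted p = 2.9e-06) and Ndrg2 fell by 1.39 (SE 0.10, adjusted p = 1.57e-07). Thbs1, the matrix protein thrombospondin-1 that can activate latent TGF-beta, rose by 2.16 (SE 0.15, adjusted p = 9.59e-08) and fell by 0.75 in the knockout against WT bleomycin (SE 0.14, adjusted p = 0.0266). Thbs1 ran from 256 to 445 CPM in control, from 1325 to 1617 in WT bleomycin and from 726 to 968 in the knockout, with no overlap between the groups. The call between the genotypes was lost in 8 of 24 alternatives, without knockout replicate 8 (adjusted p = 0.0786), 9 (0.0785) or 11 (0.0777), without WT bleomycin replicate 2 (0.0576), 5 (0.0565), 4-B2 (0.0671) or 7 (0.0506), and with only lower-case labels (0.131), while the estimate stayed between -0.81 and -0.67 in all 24. The order of its groups was that of Myc, although Thbs1 is listed as a gene that Myc lowers. None of the 7 genes of this list with a promoter window held CACGTG.

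Myc is itself an immediate early gene of growth factor signalling, so that class was set beside it. Of 10 genes 3 rose and 2 fell in WT bleomycin, and 5 of 10 is near the 48.9% of all genes. Egr2 went up from 11.0 ± 2.64 CPM in control (SD, n = 4) to 31.6 ± 4.91 in WT bleomycin (SD, n = 5), a log2 fold change of 1.53 (SE 0.16, adjusted p = 3.37e-06), and stood at 22.9 ± 3.26 (SD, n = 4) in the knockout. Junb rose by 0.88 (SE 0.22, adjusted p = 0.00468). Jun fell by 0.62 (SE 0.09, adjusted p = 4.12e-05) and Dusp1 fell by 0.91 (SE 0.27, adjusted p = 0.0117). Between the genotypes 0 of 10 passed in edgeR, and 3 had an unadjusted p under 0.05, beside 2608 of all 15315 genes. Of the 10 estimates 8 were lower in the knockout, as Myc was, with a median of -0.19. The summed level of the class overlapped across the 3 groups, from 1355 to 2171 CPM in control, 1157 to 1847 in WT bleomycin and 1191 to 1512 in the knockout.

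**Figure D4:**
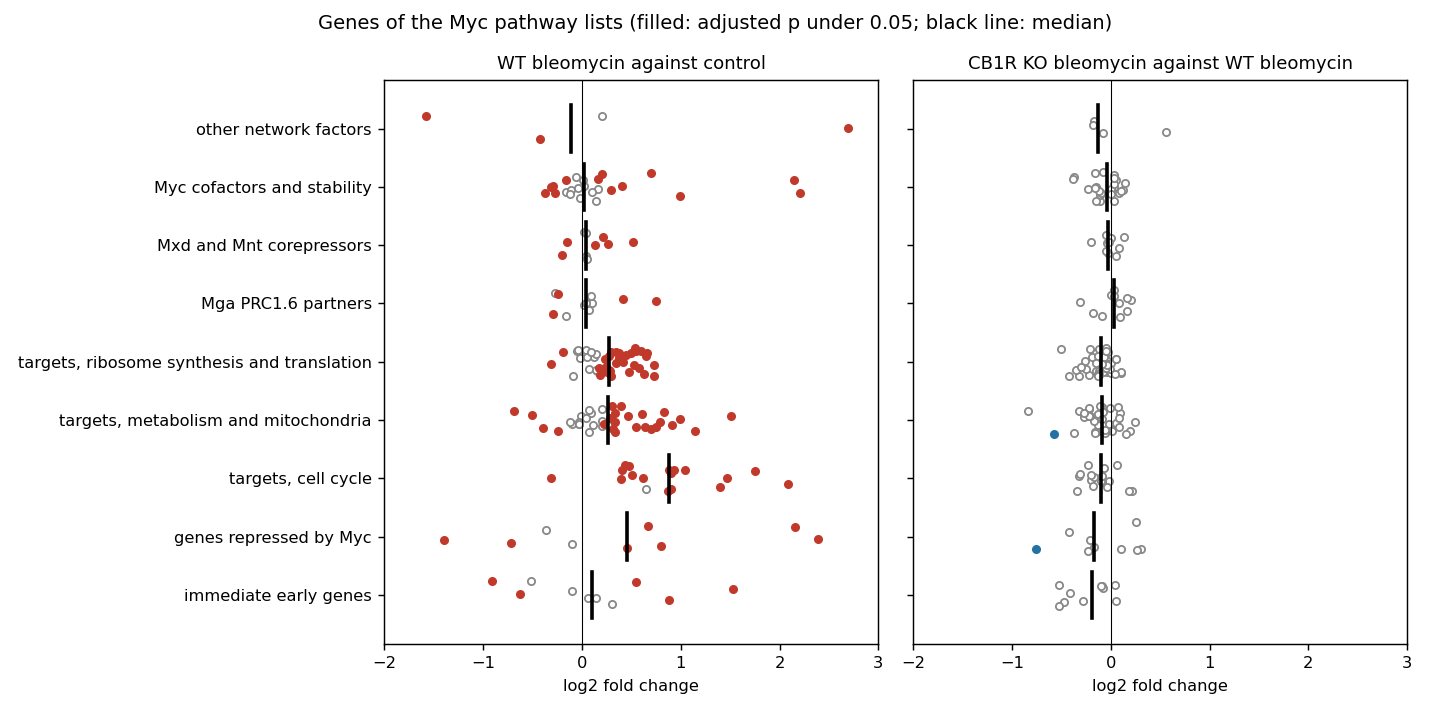
Log2 fold change of each gene of 9 pathway lists in WT bleomycin against control and in CB1R KO bleomycin against WT bleomycin, filled where the adjusted p was under 0.05, with the median of each list as a black line. Cell cycle targets have the highest median with bleomycin, 0.88, and only Slc2a1 and Thbs1 are filled between the genotypes.

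The count between the genotypes turned on single libraries. Without CB1R KO replicate 10, 15 of the 169 pathway genes passed, 14 lower and 1 higher, beside 4.24% of all genes, and 6 of them were ribosome and translation targets, among them Eif4a1 at -0.43 (SE 0.09, adjusted p = 0.0219) and Noc4l at -0.48 (SE 0.10, adjusted p = 0.021). With DESeq2 on all libraries 13 passed, 12 lower and 1 higher, beside 4.23% of all genes. Leaving out knockout replicate 8, 9 or 11 alone gave 0, beside 0.0583%, 0.00648% and 0.0194% of all genes. Leaving out WT bleomycin replicate 2, 5, 4-B2 or 7 alone gave 1, beside 0.157% to 0.406%, and leaving out WT bleomycin replicate 4 gave 4, beside 1.51%. These counts rose and fell with the share of all genes called. The cell type markers of the knockout libraries also differed among themselves. In replicate 10 the type II markers summed to 12196 CPM, near the 10554 to 11908 of WT bleomycin, whereas the other knockout libraries had 17008 to 19317 and the controls 16762 to 20086. In fibroblast and cycling cell markers replicates 10 and 11 stood together. Fibroblast markers summed to 4671 and 4225 CPM in replicates 10 and 11 against 2673 and 2759 in 8 and 9, and cycling markers to 311 and 357 CPM against 132 and 164. Replicates 8 and 9 differed less from each other over all genes than from 10 and 11, with r = 0.986 of log2 CPM for the pairs 8 with 9 and 10 with 11 and 0.98 to 0.981 for the cross pairs. The part of this split in the counts of calls was not tested. Myc in replicate 10, at 17.5 CPM, was the highest of the knockout group but below every WT bleomycin library, and its Mga was the highest and its Mxi1 the lowest of that group.

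Other cell type markers moved with the groups as well. All 6 markers of monocyte-derived macrophages (Spp1, Trem2, Fabp5, Ccr2, Ms4a7 and Gpnmb) rose with bleomycin, from a sum of 227 to 303 CPM in control to 1780 to 2297 in WT bleomycin and 1340 to 1844 in the knockout. Of 5 fibroblast markers 4 rose in WT bleomycin, with sums of 1361 to 1510, 3989 to 6110 and 2673 to 4671 CPM in the 3 groups. Of 5 type II markers 4 fell in WT bleomycin and 3 were higher in the knockout than in WT bleomycin. Cardiac muscle markers (Myh6, Myl7, Tnnt2, Nppa and Actc1) ran from 622 to 1578 CPM in control, 101 to 414 in WT bleomycin and 423 to 750 in the knockout, and all 5 fell in WT bleomycin. Adipocyte markers summed to 39.9 to 136, 11.6 to 41.3 and 23.0 to 79.8 CPM, and 3 of the 4 that could be tested fell. Of the other markers 2 of 4 for type I cells, 3 of 4 for endothelial cells, 1 of 5 for alveolar macrophages, 1 of 4 for T cells and 3 of 3 for B cells fell in WT bleomycin, and the 1 other endothelial marker rose. Among all lists no marker was at 0 in every library, and Lep, an adipocyte marker, was at 0 in some. Of all genes 25% were called higher and 23.9% lower in WT bleomycin against control, and 0.359% higher in the knockout against WT bleomycin. The part of these cell types in the values of the network was not tested.

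The genes whose pattern was most like that of Myc were found by the Pearson correlation of log2 CPM over the 13 libraries, which share their groups, so any gene with the same order of group means scores high. Among the 5 highest were St8sia6 (r = 0.966), Card19 (0.963) and Synpo (0.961). St8sia6, a sialyltransferase gene, had 8.17 to 9.41 CPM in control, 15.5 to 21.7 in WT bleomycin and 12.6 to 16.8 in the knockout. With the group means removed, r was 0.736 for St8sia6, 0.721 for Card19 and 0.72 for Synpo. The ranking used the same libraries, so it also favours genes with a high r within the groups. The 3 most opposite genes were Il17rd (r = -0.964), Wscd1 (-0.961) and Tpra1 (-0.956), and with the group means removed r was -0.617, -0.547 and -0.551. Il17rd, a membrane inhibitor of FGF signalling, fell from 72.2 ± 1.44 CPM (SD, n = 4) in control to 43.8 ± 3.82 (SD, n = 5) in WT bleomycin and stood at 54.9 ± 3.78 (SD, n = 4) in the knockout. Since these genes were picked for following Myc over the same libraries, their differences between groups and their r within groups are given with no test.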

How the data were processed

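Per the labels and the study's methods, oligo(dT)-selected lung RNA was sequenced as paired-end reads, and the authors quantified it with kallisto on Ensembl transcripts (build GRCm39) and added up the values of a gene's protein-coding transcripts. The deposited tables hold the authors' estimated counts, not normalized, and their TPM, which is scaled to transcript length and library total. The strand setting is not given in the sources used here. The 13 files of single samples repeat the values of the series tables, and 1 column of the TPM table that matches no sample was not used.

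Estimated counts were rounded, filtered with filterByExpr, scaled by TMM and fitted in edgeR 4.0.16 under R 4.3.3 (quasi-likelihood test) with the 13 libraries in 3 groups and no covariate. P-values were adjusted by Benjamini-Hochberg over 15315 genes and the threshold was 0.05. The SE is the absolute log2 fold change divided by the square root of F. CPM used TMM library sizes, and correlations used log2 CPM with a prior count of 2. TPM served for levels between genes, for the sums and ratios of network genes that were compared between groups, and for the limma alternatives. The procedure was tested on simulated data.

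The labels number the libraries but do not describe cages or days, and WT bleomycin replicates 4 and 4-B2 carry the same number. Whether those replicates come from separate mice is not given. They were counted as separate, so p-values measure the spread between libraries. The members and lists were chosen with earlier results of these data known. Named genes were the members, Cnr1, from each list the 2 lowest p in each direction in WT bleomycin against control and those called between the genotypes, the genes most like Myc, and the markers. Of the genes that this rule picks, 2 are not reported here. Mlx, Eif4a1 and Noc4l were named after their values were seen. The alternatives left out the filter, asked for 10 counts in each library, scaled by RLE or the upper quartile, used DESeq2 1.42.0 or limma 3.58.1 on log2(TPM + 1) and log2(TPM + 0.1), fitted only 2 groups, took label style (lower-case or capitals) as a batch, kept lower-case labels only, thinned CB1R KO replicate 11, or dropped each library in turn. Promoter windows were searched with Python 3.11.15, and plots were drawn with matplotlib 3.10.9.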

Additional observations from a re-analysis of the deposited data

Results flagged for a closer look

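Of 27 sets of values, 9 genes in 3 groups, 1 had a library set apart by Dixon's criterion, and chance gives about 1 in 20. Mga in WT bleomycin replicate 4 was at 65.6 CPM, while the other 4 libraries of that group lay between 53.1 and 54.3, so that its gap to them was 0.902 of the range. Without that library the log2 fold change of Mga in WT bleomycin against control was -0.27 (adjusted p = 0.00905), in place of -0.21 (adjusted p = 0.0487). Its cause was not tested.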

How the results depend on the processing

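No paired analysis was possible because the groups share no replicate numbers. Over 25 alternatives the log2 fold change of Myc ran from 1.56 to 1.75 in WT bleomycin against control. Over the 24 that applied to the other comparisons it ran from -1.04 to -0.81 in the knockout against WT bleomycin and from 0.63 to 0.82 in the knockout against control. The members other than Myc called were 5 to 7 in WT bleomycin against control, and 0 in the knockout against WT bleomycin under every alternative. In the knockout against control the count was 2 with limma on log2(TPM + 1) and on log2(TPM + 0.1), and 2 with only the libraries that have lower-case labels. With single libraries left out it ran from 2, without CB1R KO replicate 11, to 6, without control replicate 3. Pathway genes called in WT bleomycin against control numbered from 83 with lower-case labels only, beside 37.2% of all genes, to 111 without CB1R KO replicate 11, beside 50.2%. In the knockout against control they numbered from 60 with lower-case labels only, beside 29.8%, to 86 with limma on log2(TPM + 1), beside 33.2%. In the knockout against WT bleomycin they numbered 13 with DESeq2, 4 with CB1R KO replicate 11 thinned and 0 with only lower-case labels. The shares of all genes there were 4.23%, 0.959% and 0.0392%. With single libraries left out they numbered 0 to 15, the 15 without CB1R KO replicate 10, beside 4.24%. No tested call changed direction. With label style as a batch term Mxd1 and Mxd4 passed in WT bleomycin against control (adjusted p = 0.0331 and 0.0489). Mycn had low counts, and CB1R KO replicate 11 is 3.33 times as deep as the median of the others. The causes of these changes were not tested.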
